A study of Arabidopsis thaliana with 9 samples.

Results

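The genes described here are 44 loci of the AP2/ERF family of plant transcription factors, out of 33602 loci with a value in the series. They were taken by locus identifier from a list of ethylene response factors (ERFs), C-repeat binding factors (CBFs, also called DREB1 proteins) and their relatives. The rule names loci and uses no measured value, but it was written with earlier results of these data known. By role they were 14 ERF activators, 8 repressors that carry an EAR motif, 5 ERFs of wound and redox stress, 6 CBF/DDF genes, 6 other DREB genes and 5 ERFs of group VII. RNA was sequenced from whole *Arabidopsis thaliana* seedlings kept for 4 d in constant red light of 94 μmol/m2/s, from the mutant *bbx11-1*, which affects the B-box protein BBX11, the mutant *pif4-2*, which affects the bHLH factor PIF4, and the wild type Col-0, with 3 libraries of each genotype. All 3 genotypes shared the same light, age and Col-0 background, and each mutant was represented by a single allele. The labels call the Col-0 libraries the wild-type control for BBX11, and the same 3 libraries were used here against *pif4-2*, so any difference in handling between Col-0 and *pif4-2* cannot be told apart from genotype. In whole seedlings, fewer cells of a type and less RNA per cell cannot be told apart either.

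AP2/ERF proteins bind short GC-rich elements through their AP2 domain. ERFs act at the GCC-box of defence genes downstream of ethylene and jasmonate, EAR repressors silence such genes through corepressors, CBFs switch on cold genes through the C-repeat/DRE, and group VII ERFs are stabilised when oxygen is low and activate fermentation genes. Many of these genes are induced within minutes by touch, wounding, cold or reactive oxygen. PIF4 is a factor of hypocotyl elongation that binds the G-box CACGTG and the related E-box CACATG, and BBX11 is a B-box protein that promotes seedling development in light.

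The stretch of 250 bases before the annotated start of transcription is printed for 6 members on which the results turn. They are *TDR1* and AT1G33760, the members with the largest rises in *pif4-2*, *ERF4* and *ERF12*, repressor genes that also rose there, and the neighbours *CBF1* and *CBF2*, of which *CBF1* passed the test there and *CBF2* did not. Sequences are from the RefSeq genome of TAIR10.1, 5′ to 3′ on the strand of the gene. Capitals mark the G-box CACGTG, the E-box CACATG and the element CGCGTT bound by calmodulin-binding CAMTA factors, searched on both strands. *TDR1* lies at chr3:8290165-8290414 (minus strand), *ERF4* at chr3:5121053-5121302 (plus), *ERF12* at chr1:9951512-9951761 (plus), AT1G33760 at chr1:12237297-12237546 (plus), *CBF1* at chr4:13022997-13023246 (minus) and *CBF2* at chr4:13016236-13016485 (minus).
TDR1: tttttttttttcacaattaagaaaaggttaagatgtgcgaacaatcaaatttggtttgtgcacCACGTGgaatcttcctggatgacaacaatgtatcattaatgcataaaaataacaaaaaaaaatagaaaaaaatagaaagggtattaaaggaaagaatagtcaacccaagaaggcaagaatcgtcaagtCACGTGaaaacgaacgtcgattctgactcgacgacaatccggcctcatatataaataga
ERF4: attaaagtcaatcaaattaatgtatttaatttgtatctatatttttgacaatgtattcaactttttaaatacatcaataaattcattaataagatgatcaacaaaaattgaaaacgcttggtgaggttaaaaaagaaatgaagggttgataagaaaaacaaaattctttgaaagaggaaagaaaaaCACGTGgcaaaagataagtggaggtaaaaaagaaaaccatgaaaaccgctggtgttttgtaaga
ERF12: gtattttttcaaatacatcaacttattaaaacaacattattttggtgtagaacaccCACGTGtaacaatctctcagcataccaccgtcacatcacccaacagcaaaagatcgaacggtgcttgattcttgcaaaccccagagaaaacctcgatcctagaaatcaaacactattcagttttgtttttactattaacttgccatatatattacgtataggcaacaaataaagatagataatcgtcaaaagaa
AT1G33760: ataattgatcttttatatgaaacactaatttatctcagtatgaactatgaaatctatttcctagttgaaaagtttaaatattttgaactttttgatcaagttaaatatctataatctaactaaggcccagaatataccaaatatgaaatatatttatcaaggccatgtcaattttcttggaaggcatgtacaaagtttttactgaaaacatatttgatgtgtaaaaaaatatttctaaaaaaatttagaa
CBF1: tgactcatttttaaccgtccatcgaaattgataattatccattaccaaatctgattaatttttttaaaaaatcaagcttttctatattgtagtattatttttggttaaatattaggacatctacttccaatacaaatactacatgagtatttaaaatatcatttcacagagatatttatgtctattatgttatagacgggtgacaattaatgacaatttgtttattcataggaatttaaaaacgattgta
CBF2: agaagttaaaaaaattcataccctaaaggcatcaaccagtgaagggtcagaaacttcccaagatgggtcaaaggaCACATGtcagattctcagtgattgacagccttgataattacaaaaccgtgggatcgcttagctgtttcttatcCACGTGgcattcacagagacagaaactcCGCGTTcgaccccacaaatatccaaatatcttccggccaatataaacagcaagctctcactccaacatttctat

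The *TDR1* stretch held 2 G-boxes, which began 187 and 59 bases before the annotated start. *ERF4* held 1 G-box, which began 64 bases before the start, and *ERF12* held 1, which began 194 bases before it. The stretches of AT1G33760 and *CBF1* held none of the 3 elements, whereas that of *CBF2* held each of them once. *ERF6*, AT5G51190, *DREB26* and *CEJ1* were also higher in *pif4-2*, and their stretches, not printed, held none of the 3 elements. Over all members, 13 of 44 stretches contained a G-box, against 6.49% of the 27443 promoters of protein-coding genes, 5 of 44 contained CACATG, against 11.1%, and 4 of 44 contained CGCGTT, against 2.59%. The targets of the family itself were also counted, with the DRE core CCGAC in 6 of 44 stretches (12% of all promoters) and the GCC-box GCCGCC in 4 of 44 (1.87%), and these letters can overlap. The W-box core TTGAC was in 19 of 44 stretches (44.9% of all promoters) and the EIN3-type core ATGTA in 25 of 44 (52.0%). Of the 9 members at an adjusted p below 0.05 in *pif4-2* (given below by name), 3 held a G-box, where 9 of all 33 tested members did. None of those raised in *pif4-2* held the CACATG E-box, the CAMTA element or a GCC-box, and 1, *CEJ1*, held the DRE core. A match describes the letters of this window only.

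Transcript levels are given in FPKM, fragments per kilobase of gene scaled to library size, as the authors deposited them. The spacing of low values corresponded to 16.2 to 22.2 M reads per library. PIF4 transcript was 16.9 ± 0.630 FPKM in *pif4-2* and 30.4 ± 4.76 FPKM in Col-0 (SD, n = 3). The *BBX11* locus AT2G47890 was at 10.7, 9.39 and 7.66 FPKM in *bbx11-1* and at 15.7, 16.4 and 78.2 FPKM in Col-0, where replicate 3 stood apart (limma, adjusted p = 0.231, with the Benjamini-Hochberg adjustment used throughout). On the first principal component, which held 32.3% of the variance, Col-0 replicate 1 (-30.0) and *bbx11-1* replicate 1 (-22.1) stood apart from the other libraries of these genotypes (-6.73 to -0.549). The *pif4-2* libraries lay at 20.8, 22.9 and 23.2, apart from all libraries of Col-0 and *bbx11-1*. Genes of green tissue (4), root (5), epidermis (2) and phloem (1) were expressed in every library and none passed an adjusted p of 0.05 in any comparison, while the 2 pollen genes summed to at most 0.1 FPKM. The 3 seed genes, none past that threshold, summed to 31.4 to 42.3 FPKM in *bbx11-1*, 17.1 to 26.1 FPKM in *pif4-2* and 20.3 to 39.9 FPKM in Col-0.

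Of the 44 members, 33 were tested, that is, the mean of some genotype was 1 FPKM or more, and the same 33 had a mean of at least 1 FPKM over the 9 libraries. Of the tested members, 3 reached 1 FPKM in the mean of only some genotypes. *TDR1* and *ERF12* had Col-0 means of 0.467 and 0.657 FPKM, so they entered the test only through the mutants, where they were higher. *DREB1A* had a mean of 0.743 FPKM in *pif4-2*. The 11 members not tested were weakly expressed, and 10 of the 44 members stayed below 1 FPKM in every library. *ESE1*, the neighbour of *TDR1*, was listed at 0 in all 9 libraries. Also untested were *ERF1*, which joins ethylene and jasmonate signals (0.110 to 0.620 FPKM), *ERF14*, AT5G43410, the wound and redox genes *RRTF1* and *ABR1*, the drought gene *CBF4*, *DDF1* and *ddf2*, *TINY2* and AT1G19210. The members thus covered a wide range of levels, from these loci to the group VII gene *EBP*.

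**Figure D1:**
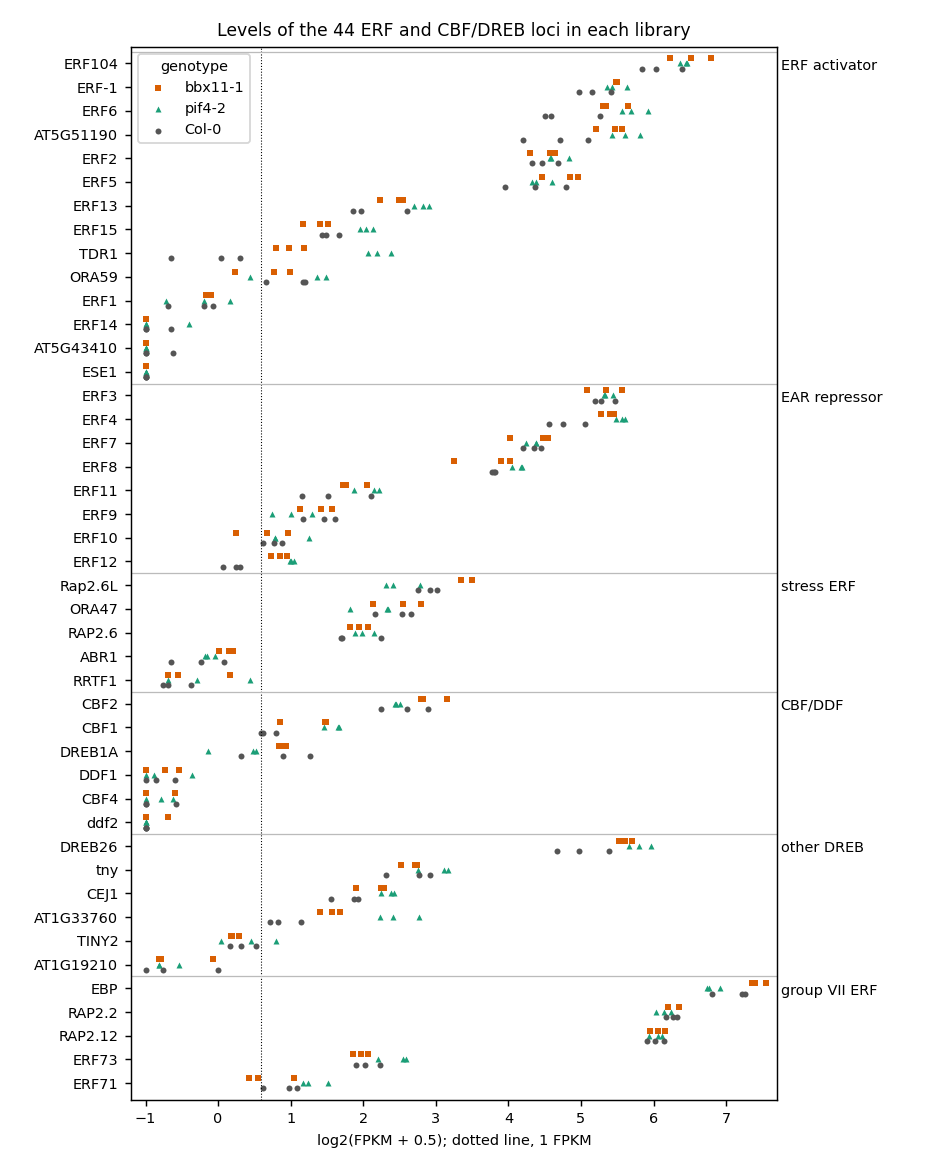
Level of each of the 44 members in each of the 9 libraries, as log2(FPKM + 0.5) on the horizontal axis, with members grouped by role and ordered by mean level within a role; squares are bbx11-1, triangles pif4-2 and circles Col-0. The dotted line marks 1 FPKM, and the 11 untested members lie to its left or straddle it, while EBP lies at the right with 106.6 FPKM or more in every library.

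The members were compared over the 3 genotypes with limma on log2(FPKM + 0.5), with p-values adjusted by Benjamini-Hochberg over all 19169 loci tested. An F test over the genotypes was passed by 11 of the 33 tested members (adjusted p below 0.05), where 4.65% of all tested loci passed it. They were *TDR1*, AT1G33760, *ERF4*, *Rap2.6L*, *DREB26*, *EBP*, *ERF6*, *ERF15*, *ERF12*, AT5G51190 and *CBF1*. Without any one of the *pif4-2* libraries the count was 4, it was 6 without Col-0 replicate 3, and 7 without *bbx11-1* replicate 2 or replicate 3.

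In *pif4-2*, 9 members were higher than in Col-0 at an adjusted p below 0.05 (2.88% of all tested loci were called higher) and none was lower (1.95% of all, 4.84% in either direction). They were *TDR1*, AT1G33760, *ERF6*, AT5G51190, *CBF1*, *ERF12*, *DREB26*, *ERF4* and *CEJ1*. Of these, *TDR1* and AT1G33760 changed by at least 2-fold (1.13% of all tested loci by this rule, 0.783% higher). The median log2 fold change of the 33 tested members was 0.33, against -0.02 over all loci tested, and 13 members had every *pif4-2* library above every Col-0 library, where 10.2% of all loci did, while none had all libraries below (12.1% of all). Without *pif4-2* replicate 1 or replicate 3 the count of 9 became 5, and *TDR1*, *ERF4* and AT1G33760 passed in each of the fits with 1 library left out. Members lower in *pif4-2* also passed in some of these fits. They were *EBP* without Col-0 replicate 3 (limma, adjusted p = 0.0256) and *Rap2.6L* without *pif4-2* replicate 2 (adjusted p = 0.0416). The smaller changes rest on few libraries, since AT5G51190, *ERF12*, *CBF1*, *CEJ1* and *ERF6* each fell short of the threshold in 2 or more of these fits.

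In *bbx11-1*, no member passed an adjusted p of 0.05 against Col-0 with limma, where 0.443% of all loci tested did, and none changed by 2-fold or more (0.146% of all), and the smallest adjusted p was 0.0556, that of *ERF4*. At an unadjusted p below 0.05, 13 members differed, all of them higher, where 10.7% of all loci differed and 6.2% were higher, and limma without the intensity trend also gave 13, with 1 member (*ERF12*) past the adjusted threshold. With the replicate number as a block, 3 members passed, namely AT5G51190, *ERF4* and *DREB26*. Without Col-0 replicate 2, in which *ERF6*, AT5G51190, *TDR1*, *ERF4* and *DREB26* were highest among the Col-0 libraries, these 5 members passed. The median log2 fold change was 0.25, against 0.00 (0.0035) over all loci, and 11 members had every *bbx11-1* library above every Col-0 library, where 6.78% of all loci did, while none had all libraries below (5.81% of all). The 3 Col-0 libraries served in both comparisons, which are therefore not independent of each other.

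**Figure D2:**
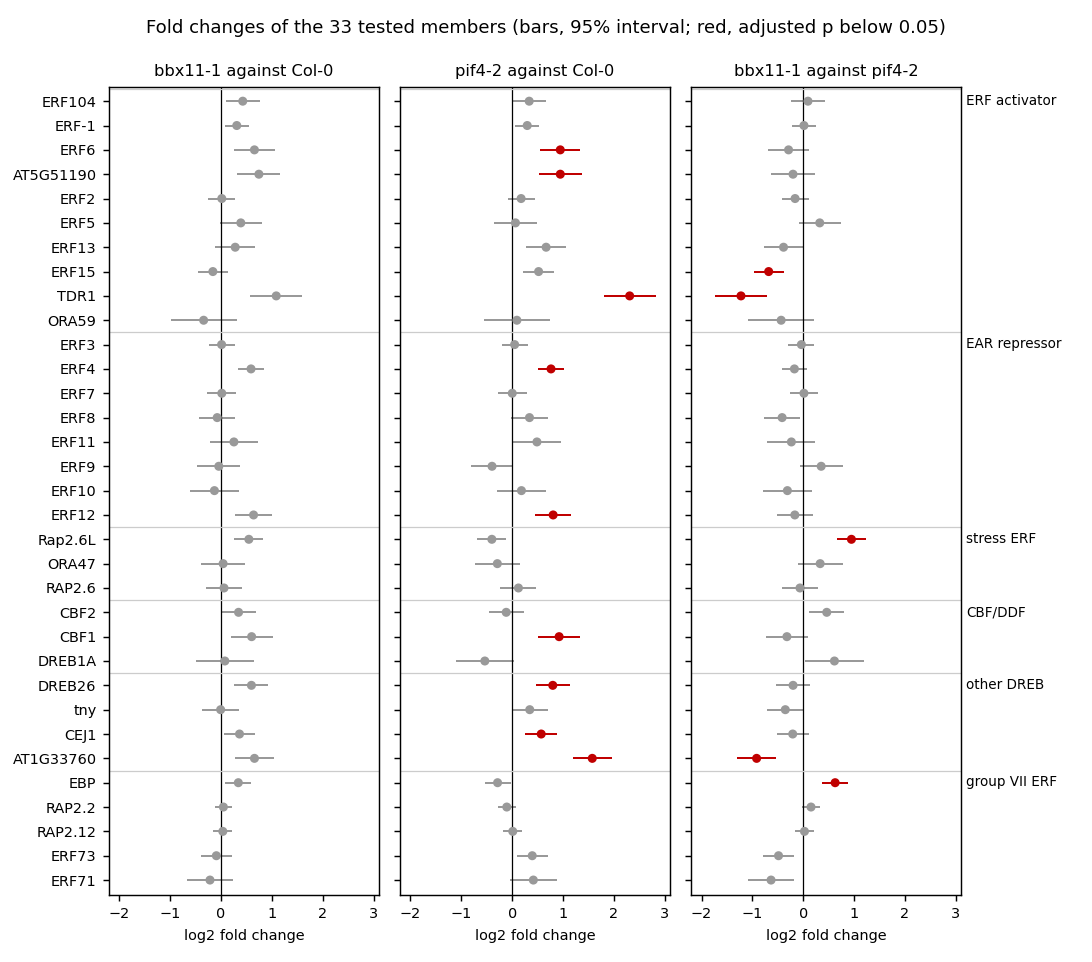
Log2 fold change of each of the 33 tested members in bbx11-1 against Col-0 (left), pif4-2 against Col-0 (middle) and bbx11-1 against pif4-2 (right), with bars for the 95% interval from limma, grouped by role; red marks an adjusted p below 0.05. No member is red on the left, 9 are red and to the right of 0 in the middle, and 5 are red on the right, 2 above 0 and 3 below it.

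Among the ERF activators, *TDR1* (AT3G23230, also *ERF98*, chr3:8289379-8290164 of TAIR10.1), known for raising ascorbate synthesis and salt tolerance, was at 1.78, 1.46 and 1.23 FPKM in *bbx11-1*, at 4.05, 3.67 and 4.71 FPKM in *pif4-2* and at 0.14, 0.73 and 0.53 FPKM in Col-0. The 3 genotypes did not overlap, with *bbx11-1* between the others. The share of all loci with such an order of libraries was not counted, here or for the members below. The rise in *pif4-2* against Col-0 was 2.31 on the log2 scale (95% interval 1.80 to 2.82, limma, adjusted p = 0.00039), and the difference of *bbx11-1* from Col-0 was 1.08 (0.57 to 1.60, adjusted p = 0.0881). At such low levels the pseudocount of 0.5 compresses fold changes, and the ratio of the mean FPKM was 8.88 in *pif4-2* and 3.19 in *bbx11-1*. These ratios are themselves imprecise, because they rest on Col-0 values near the floor (0.14 to 0.73 FPKM). The gene lies 776 bases from *ESE1*, listed at 0, and 5452 bases from *ERF1*, at most 0.620 FPKM, so that it was the only tested gene of this row of 3 ERFs.

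*ERF6* and AT5G51190 (*ERF105*) belong to a group of closely related, rapidly induced activators with *ERF5* and *ERF104*. *ERF6*, known from growth arrest under osmotic stress, was at 40.3, 39.2 and 49.6 FPKM in *bbx11-1*, 51.3, 60.1 and 46.7 FPKM in *pif4-2* and 22.1, 37.8 and 23.5 FPKM in Col-0. The log2 fold change was 0.95 in *pif4-2* (0.55 to 1.34, limma, adjusted p = 0.0121) and 0.66 in *bbx11-1* (0.26 to 1.05, adjusted p = 0.184). Every library of both mutants lay above every Col-0 library, of which replicate 2 was the highest. AT5G51190, a factor of freezing tolerance, was at 36.4, 43.9 and 46.9 FPKM in *bbx11-1*, 48.4, 55.6 and 42.6 FPKM in *pif4-2* and 17.9, 33.9 and 25.7 FPKM in Col-0. Its log2 fold change was 0.95 in *pif4-2* (0.52 to 1.37, adjusted p = 0.0168) and 0.74 in *bbx11-1* (0.32 to 1.17, adjusted p = 0.154, or 0.0475 with the replicate block). This locus overlaps AT5G51180 on the opposite strand, and the strand setting of the counting is not given in the sources used here.

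*ERF104*, a target of the kinase MPK6 in the response to flagellin, was the second most abundant member, with 74.3, 91.2 and 110.8 FPKM in *bbx11-1*, 86.6, 87.6 and 81.8 FPKM in *pif4-2* and 56.6, 83.6 and 65.1 FPKM in Col-0. Col-0 replicate 2 overlapped both mutants, and the log2 fold changes of 0.43 in *bbx11-1* (adjusted p = 0.327) and 0.33 in *pif4-2* (adjusted p = 0.302) did not pass. *ERF15*, a positive factor of abscisic acid responses, was at 2.36, 2.14 and 1.76 FPKM in *bbx11-1*, 3.91, 3.38 and 3.61 FPKM in *pif4-2* and 2.20, 2.30 and 2.66 FPKM in Col-0. Every *pif4-2* library lay above the others, with a log2 difference from Col-0 of 0.52 (0.22 to 0.82, adjusted p = 0.0542). Of the other tested activators, *ERF-1*, *ERF2* and *ERF5*, activators at the GCC-box, *ERF13* and *ORA59*, which joins jasmonate and ethylene signals at defensin genes, had log2 fold changes between 0.06 (*ERF5*) and 0.67 (*ERF13*, adjusted p = 0.0605) in *pif4-2* and between -0.34 (*ORA59*) and 0.39 (*ERF5*) in *bbx11-1*, none past the threshold. *ERF-1* was the most abundant of these, at 44.1 to 44.6 FPKM in *bbx11-1*, 40.6 to 49.2 FPKM in *pif4-2* and 31 to 42.3 FPKM in Col-0, and *ORA59* the least, at 0.68 to 1.48 FPKM in *bbx11-1*, 0.86 to 2.3 FPKM in *pif4-2* and 1.08 to 1.79 FPKM in Col-0. *ERF13* was at 4.18 to 5.32 FPKM in *bbx11-1*, 5.98 to 7.01 FPKM in *pif4-2* and 3.41 to 5.55 FPKM in Col-0, so that its *pif4-2* libraries stood above all others.

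Of the 8 EAR repressors, *ERF4* and *ERF12* were higher in *pif4-2*. *ERF4*, which dampens ethylene and jasmonate responses, was at 41.8, 43.4 and 38.2 FPKM in *bbx11-1*, 47.0, 44.4 and 48.1 FPKM in *pif4-2* and 23.1, 32.8 and 26.5 FPKM in Col-0. As for *TDR1*, the 3 genotypes did not overlap, with *bbx11-1* between the others, but the 2 mutants did not differ detectably (limma, adjusted p = 0.515). The difference from Col-0 was 0.76 on the log2 scale in *pif4-2* (0.52 to 1.01, limma, adjusted p = 0.00298) and 0.59 in *bbx11-1* (0.34 to 0.84, adjusted p = 0.0556, or 0.0381 with the replicate block). *ERF12* was at 1.31, 1.43 and 1.16 FPKM in *bbx11-1*, 1.49, 1.5 and 1.56 FPKM in *pif4-2* and 0.73, 0.55 and 0.69 FPKM in Col-0, again without overlap between the 3 genotypes and with *bbx11-1* between the others. Here too the 2 mutants did not differ detectably (limma, adjusted p = 0.693). The log2 fold change was 0.81 in *pif4-2* (0.45 to 1.16, adjusted p = 0.016) and 0.64 in *bbx11-1* (0.28 to 1.00, adjusted p = 0.145). The remaining repressors, *ERF3*, *ERF7*, *ERF8*, *ERF9*, *ERF10* and *ERF11*, did not pass in any comparison, with log2 differences from Col-0 of -0.13 (*ERF10*) to 0.25 (*ERF11*, which represses ethylene synthesis genes) in *bbx11-1* and -0.40 (*ERF9*) to 0.49 (*ERF11*) in *pif4-2*. Among them *ERF3* was the most abundant, with 33.3 to 46.6 FPKM in *bbx11-1*, 39.4 to 42.9 FPKM in *pif4-2* and 36.2 to 43.99 FPKM in Col-0, and its libraries overlapped between all genotypes.

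The CBF genes, which prepare plants for freezing, lie in a row on chromosome 4, with *CBF2* at chr4:13015250-13016235, *DREB1A* at chr4:13018010-13019400 and *CBF1* at chr4:13021780-13022996, all on the minus strand. *CBF1* (AT4G25490) was at 1.30, 2.27 and 2.31 FPKM in *bbx11-1*, 2.64, 2.26 and 2.66 FPKM in *pif4-2* and 1.00, 1.04 and 1.24 FPKM in Col-0. Each mutant library was above each Col-0 library, with a log2 fold change of 0.92 in *pif4-2* (0.51 to 1.34, limma, adjusted p = 0.0169) and 0.60 in *bbx11-1* (0.19 to 1.01, adjusted p = 0.25). *CBF2* (AT4G25470), the most abundant of the CBF genes, was at 6.55, 8.4 and 6.46 FPKM in *bbx11-1*, 4.95, 4.90 and 5.19 FPKM in *pif4-2* and 4.24, 6.92 and 5.58 FPKM in Col-0. Its libraries overlapped between *pif4-2* and Col-0, with a log2 difference of -0.12 (-0.46 to 0.23, adjusted p = 0.792), a sign that turned to 0.0381 without Col-0 replicate 2. *DREB1A* (*CBF3*, AT4G25480) was at 1.29, 1.41 and 1.39 FPKM in *bbx11-1*, 0.41, 0.93 and 0.89 FPKM in *pif4-2* and 1.36, 1.90 and 0.74 FPKM in Col-0, with a log2 difference of -0.54 in *pif4-2* (-1.11 to 0.03, adjusted p = 0.338). A long non-coding RNA gene overlaps *DREB1A* on the opposite strand.

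The level of *CBF1* was also set against that of its neighbours within each library. The log2 ratio of *CBF1* to *CBF2* was -0.80, -0.97 and -0.85 in *pif4-2* and -1.66, -2.27 and -1.80 in Col-0, a difference of 1.04. The ratio of *CBF1* to *DREB1A* was 1.79, 0.95 and 1.18 in *pif4-2* and -0.31, -0.64 and 0.49 in Col-0, a difference of 1.46. In both cases the genotypes did not overlap (two-sided exact permutation test, p = 0.1, the smallest that 3 libraries against 3 allow, or 0.167 adjusted over the 5 neighbour pairs compared). For *ERF6* over its neighbour *ERF-1* the difference was 0.65 (exact p = 0.1), for *ERF12* over *ERF11* it was 0.32 (exact p = 0.4) and for *ERF5* over *ERF2* it was -0.11 (exact p = 0.5). With 1 library left out, the value for *ERF12* over *ERF11* ran from -0.0055 (without Col-0 replicate 2) to 0.5584 (without Col-0 replicate 3), and that for *ERF5* over *ERF2* from -0.2336 (without Col-0 replicate 1) to -0.0017 (without Col-0 replicate 2). No pair could pass a threshold of 0.05 with this number of libraries. Exact copies of 50-base stretches elsewhere in the genome made up 2.48% of *CBF1*, 3.95% of *CBF2* and 0.596% of *DREB1A*, so some reads could be shared among them.

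Of 10 cold genes that CBF proteins activate, 9 were tested. At an adjusted p below 0.05, 2 were lower in *pif4-2* than in Col-0 (1.95% of all tested loci) and none was higher (2.88% of all). The log2 difference was negative for 8 of the 9 and positive for 1, *KIN1* (0.36, limma, adjusted p = 0.122). Every *pif4-2* library of *KIN1* lay above every Col-0 library, where 10.2% of all loci did so. *LTI78* (*RD29A*), which carries several DREs, was at 31.3, 33.1 and 30.8 FPKM in *bbx11-1*, 13.0, 14.7 and 12.5 FPKM in *pif4-2* and 27.9, 26.4 and 26.1 FPKM in Col-0. The fall in *pif4-2* was -0.98 on the log2 scale (adjusted p = 0.000144). *COR413IM1*, a cold-regulated protein of the chloroplast envelope, fell by 0.80 on the log2 scale (adjusted p = 0.00518), with 14.04, 14.8 and 11.6 FPKM in *pif4-2* and 28.3, 19.3 and 24.6 FPKM in Col-0. Against *pif4-2*, *bbx11-1* was higher by 1.22 for *LTI78* and 1.06 for *COR413IM1* (adjusted p = 2.78e-05 and 0.00286). The most abundant of the cold genes, *COR47*, was at 255.2 to 355.9 FPKM in *bbx11-1*, 217.7 to 255.7 FPKM in *pif4-2* and 239.8 to 275.1 FPKM in Col-0 and did not pass in either comparison with Col-0. Of 6 upstream regulators of the CBF genes, 5 were tested, and 1, *SR1* (*CAMTA3*), was higher in *pif4-2*, by 0.45 on the log2 scale (adjusted p = 0.0282), a call lost in 8 of 19 alternatives.

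**Figure D3:**
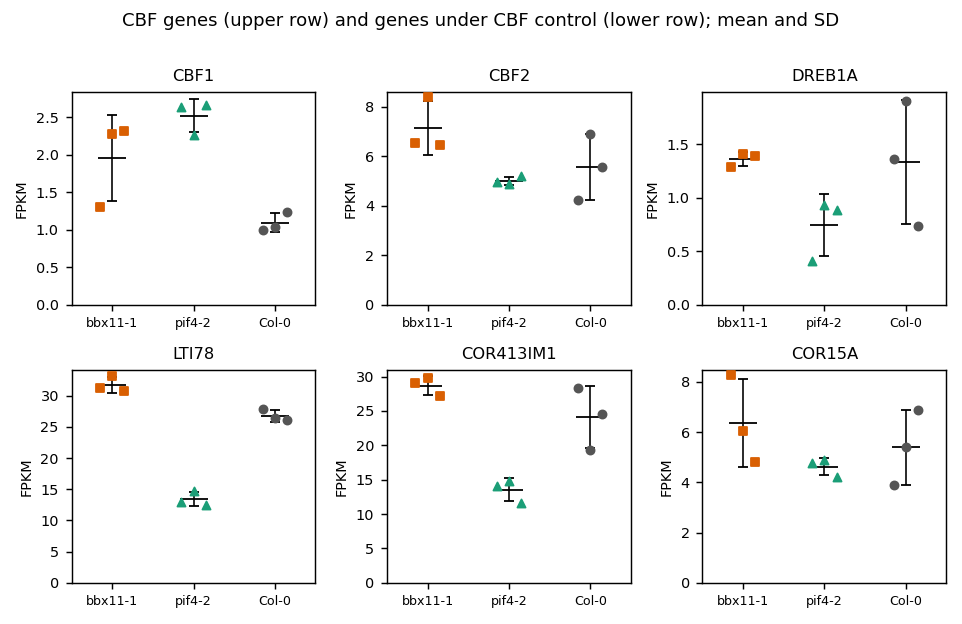
FPKM of CBF1, CBF2 and DREB1A (upper row) and of the cold genes LTI78, COR413IM1 and COR15A (lower row) in bbx11-1, pif4-2 and Col-0, with the 3 libraries of each genotype as points and the mean and SD in black. CBF1 is higher in pif4-2 than in Col-0 (2.26 to 2.66 against 1.00 to 1.24 FPKM), whereas LTI78 is lower (12.5 to 14.7 against 26.1 to 27.9 FPKM).

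Of the other DREB genes, AT1G33760 (chr1:12237547-12238710), a locus with no gene name in the annotation, was at 2.14, 2.48 and 2.71 FPKM in *bbx11-1*, 6.33, 4.83 and 4.18 FPKM in *pif4-2* and 1.14, 1.28 and 1.71 FPKM in Col-0. As for *TDR1*, *ERF4* and *ERF12*, the 3 genotypes did not overlap and *bbx11-1* lay between the others. The log2 fold change was 1.57 in *pif4-2* (1.2 to 1.95, limma, adjusted p = 0.000495) and 0.66 in *bbx11-1* (0.28 to 1.03, adjusted p = 0.158). *DREB26*, the most abundant DREB gene, was at 45.4, 51.4 and 48.2 FPKM in *bbx11-1*, 50.2, 55.1 and 62.0 FPKM in *pif4-2* and 24.9, 41.3 and 31.0 FPKM in Col-0, with a log2 fold change of 0.80 in *pif4-2* (0.47 to 1.13, adjusted p = 0.0116) and 0.60 in *bbx11-1* (adjusted p = 0.145, or 0.0475 with the replicate block). *CEJ1* (*DEAR1*), which joins a DREB domain to an EAR motif and represses cold genes, was at 3.24, 4.23 and 4.40 FPKM in *bbx11-1*, 4.71, 4.89 and 4.26 FPKM in *pif4-2* and 3.15, 3.29 and 2.45 FPKM in Col-0 (0.57 in *pif4-2*, adjusted p = 0.0441), a call that was lost in 10 of 19 alternatives. The fourth tested DREB gene, *tny* (*TINY*), was at 5.26 to 6.19 FPKM in *bbx11-1*, 6.27 to 8.51 FPKM in *pif4-2* and 4.46 to 7.09 FPKM in Col-0.

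**Figure D4:**
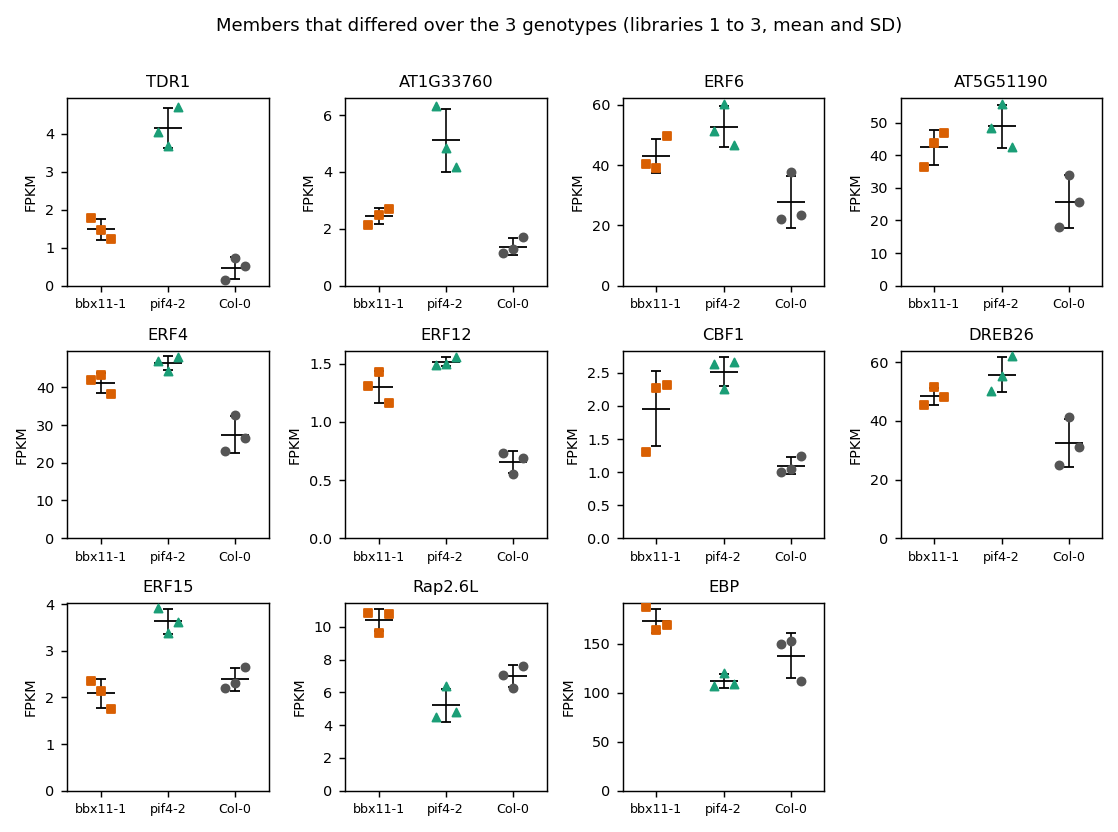
FPKM of the 11 members past the F test over the 3 genotypes, in bbx11-1, pif4-2 and Col-0, with the 3 libraries of each genotype as points and the mean and SD in black; each vertical axis starts at 0. For TDR1, AT1G33760, ERF4 and ERF12 the points of the 3 genotypes do not overlap, with pif4-2 highest, but ERF4 and ERF12 did not differ detectably between the mutants. Rap2.6L and EBP instead have their lowest mean in pif4-2 (libraries at 4.48 to 6.37 and 106.6 to 120.4 FPKM).

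*Rap2.6L* and *EBP* differed over the genotypes with their lowest mean in *pif4-2*. *Rap2.6L*, a factor of shoot regeneration and waterlogging tolerance, was at 10.8, 9.64 and 10.8 FPKM in *bbx11-1*, 4.48, 6.37 and 4.8 FPKM in *pif4-2* and 7.09, 6.26 and 7.62 FPKM in Col-0. The *bbx11-1* libraries were above all others, while *pif4-2* overlapped Col-0 in 1 library. Against Col-0 the log2 differences were 0.55 in *bbx11-1* (0.26 to 0.83, adjusted p = 0.121) and -0.40 in *pif4-2* (-0.68 to -0.12, adjusted p = 0.122, or 0.0416 without *pif4-2* replicate 2). Of the other stress ERFs, *ORA47*, a wound-induced activator of jasmonate synthesis, was at 3.89 to 6.45 FPKM in *bbx11-1*, 3.04 to 4.55 FPKM in *pif4-2* and 3.97 to 5.84 FPKM in Col-0. *RAP2.6*, linked to salt and osmotic stress, was at 3.03 to 3.67 FPKM in *bbx11-1*, 3.21 to 3.93 FPKM in *pif4-2* and 2.72 to 4.25 FPKM in Col-0.

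*EBP* (*RAP2.3*), a group VII ERF, was the most abundant member, at 186.9, 163.6 and 168.4 FPKM in *bbx11-1*, 106.6, 120.4 and 108.7 FPKM in *pif4-2* and 149.1, 152.9 and 111.4 FPKM in Col-0. It was higher in *bbx11-1* than in every Col-0 library, by 0.34 on the log2 scale (0.08 to 0.59, adjusted p = 0.303). Col-0 replicate 3 lay among the *pif4-2* libraries (-0.29 in *pif4-2*, adjusted p = 0.232, or 0.0256 without this replicate). Libraries overlapped between all genotypes for the other constitutive oxygen sensors. *RAP2.2* was at 81.0, 80.8 and 73.0 FPKM in *bbx11-1*, 65.3, 75.5 and 70.5 FPKM in *pif4-2* and 71.7, 79.5 and 76.2 FPKM in Col-0, and *RAP2.12* at 61.5, 70.9 and 66.5 FPKM in *bbx11-1*, 66.5, 68.6 and 60.6 FPKM in *pif4-2* and 59.7, 64.4 and 70.3 FPKM in Col-0. For *RAP2.12* the log2 difference from Col-0 was 0.03 in *bbx11-1* (95% interval -0.15 to 0.22) and 0.01 in *pif4-2* (-0.18 to 0.20), and 22.3% of its 50-base stretches occur elsewhere in the genome. The hypoxia-induced *ERF73* (*HRE1*) was at 3.12 to 3.67 FPKM in *bbx11-1*, 4.11 to 5.53 FPKM in *pif4-2* and 3.24 to 4.18 FPKM in Col-0. *ERF71* (*HRE2*) was at 0.84 to 1.56 FPKM in *bbx11-1*, 1.74 to 2.37 FPKM in *pif4-2* and 1.03 to 1.62 FPKM in Col-0, and neither passed the threshold in any comparison. Of 11 core hypoxia genes, which group VII ERFs activate, none passed against Col-0 in either mutant, with medians of -0.23 in *bbx11-1* and 0.12 in *pif4-2*, where *ADH1* had an adjusted p of 0.0512. The count passing in *pif4-2* became 1 in 6 of 19 alternatives, including the replicate block. In *bbx11-1* the log2 difference was negative for 10 of the 11, and 6 had every library below every Col-0 library (5.81% of all tested loci). In *pif4-2*, 5 had every library above every Col-0 library (10.2% of all) and 1 had every library below (12.1% of all). Between the mutants, *ADH1*, the pyruvate decarboxylase gene AT4G33070, *SUS4* and *FTM1* were lower in *bbx11-1*, by -0.63 to -0.87 on the log2 scale (0.902% of all tested loci were lower). None of these 4 calls held without *pif4-2* replicate 2 or replicate 3.

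In the direct comparison of the mutants, 5 of the 33 tested members passed an adjusted p of 0.05, where 2.32% of all loci did. The fold changes here use no Col-0 value, but the Col-0 libraries enter the estimate of the spread. A fit of only the libraries of the genotypes compared passed the same 5 members. *TDR1* (-1.23, adjusted p = 0.0221), AT1G33760 (-0.92, 0.0204) and *ERF15* (-0.68, 0.0262) were lower in *bbx11-1* than in *pif4-2* (0.902% of all loci were lower), and *Rap2.6L* (0.95, 0.00373) and *EBP* (0.63, 0.0192) were higher (1.42% of all). Of these, *TDR1* differed by at least 2-fold (0.636% of all loci). Without *pif4-2* replicate 1 the count of 5 became 1, *Rap2.6L*, which passed in each fit with 1 library left out, and it was 2 without *pif4-2* replicate 2 or 3 or *bbx11-1* replicate 2 or 3. The other members raised in *pif4-2* did not differ detectably between the mutants. In *bbx11-1* against *pif4-2*, the log2 difference for *ERF4* was -0.17 (-0.42 to 0.07), for *ERF12* -0.17 (-0.52 to 0.19), for AT5G51190 -0.20 (-0.63 to 0.22) and for *CBF1* -0.32 (-0.74 to 0.09).

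The pathway genes around the members were taken from lists and their counts are descriptions. Of 11 ethylene signalling genes, from the receptors to the *EIN3* factors, none passed against Col-0 in either mutant, with median log2 fold changes of 0.12 in *bbx11-1* and -0.10 in *pif4-2*, while *EBF2* (0.53, adjusted p = 0.00518) and *ETR2* (0.56, adjusted p = 0.0313), genes that ethylene induces, were higher in *bbx11-1* than in *pif4-2*. The *ETR2* call was lost in 8 of 19 alternatives, among them the omission of any one *bbx11-1* or *pif4-2* library. Of 6 defence genes that ERFs activate, 3 were tested and none passed against Col-0. The defensin *PDF1.2*, a classical target of *ERF1* and *ORA59*, was at 4.63, 0.12 and 2.23 FPKM in *bbx11-1*, 0.36, 0.68 and 0 FPKM in *pif4-2* and 0.13, 1.41 and 0 FPKM in Col-0, with overlap between the genotypes. *HCHIB* and *PR4*, also tested, had every *bbx11-1* library below every Col-0 library (5.81% of all tested loci did). Their log2 differences were -0.28 (limma, adjusted p = 0.352) and -0.33 (adjusted p = 0.284). *HCHIB* was also lower in *bbx11-1* than in *pif4-2* (-0.46, adjusted p = 0.0473), a call lost in 11 of 19 alternatives.

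Genes known for rapid induction by touch, wounding or stress were also measured, from a list chosen with earlier results of these data known. Of 16 such genes 14 were tested, and in *pif4-2* 13 were higher than in Col-0 at an adjusted p below 0.05, 10 of them by at least 2-fold (2.88% and 0.783% of all tested loci), with a median log2 fold change of 1.17. In *bbx11-1* 3 were higher (*WRKY40*, *WRKY33* and *RHL41*, where 0.271% of all loci were), or 6 with the replicate block, 9 without Col-0 replicate 2 and 1 without Col-0 replicate 3, with a median of 0.75. *PHI-1*, *TCH4*, a xyloglucan-modifying enzyme, and the calmodulin-like genes *CML38* and *TCH3* rose the most in *pif4-2*, by 2.46, 1.72, 1.52 and 1.23. *TCH4* was at 142.3, 131.5 and 131.7 FPKM in *bbx11-1*, 279.9, 258.6 and 227.0 FPKM in *pif4-2* and 57.0, 110.2 and 71.5 FPKM in Col-0. Summed over the 16 genes, the level was 805.5 to 904.0 FPKM in *bbx11-1*, 1167 to 1331 FPKM in *pif4-2* and 415.6 to 671.5 FPKM in Col-0, where replicate 2 was the highest and replicate 1 the lowest. Several members belong to the same class of rapidly induced genes, and the part of such induction in the members' values was not tested.

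**Figure D5:**
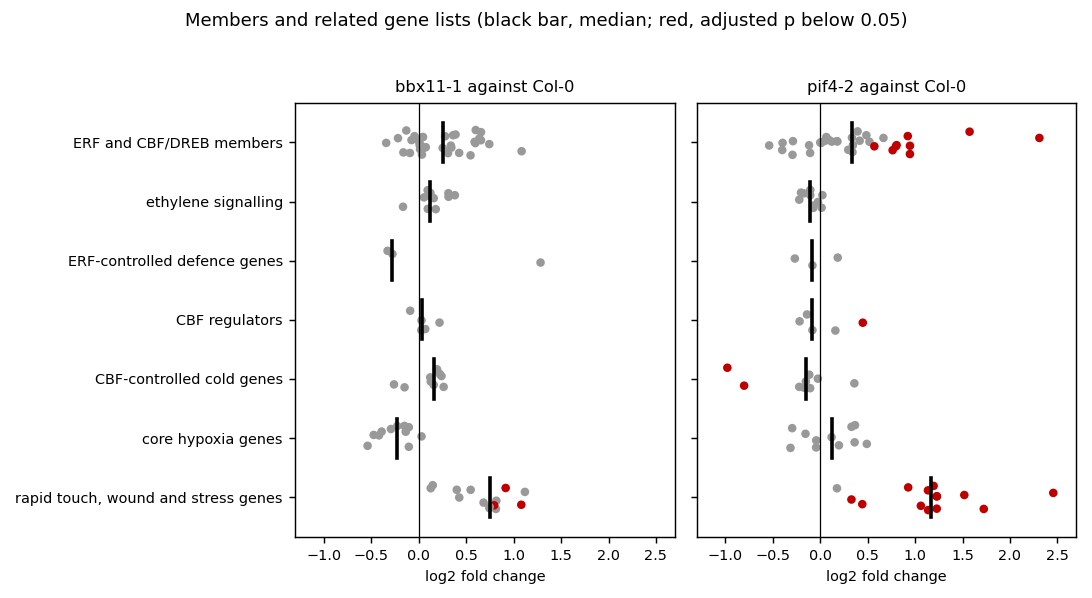
Log2 fold changes in bbx11-1 (left) and pif4-2 (right) against Col-0 of the tested members and of 6 lists of related genes; each point is a gene, black bars are medians and red marks an adjusted p below 0.05. The rapidly induced genes have the highest median in each panel (0.75 and 1.17), the members have medians of 0.25 and 0.33, and the red points left of 0 are LTI78 and COR413IM1.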

How the data were processed

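RNA-seq libraries were from whole seedlings of *bbx11-1*, *pif4-2* and Col-0, with 3 independent biological replicates of each genotype, numbered in the labels. The authors mapped reads to TAIR10 with HISAT2, counted them with HTSeq and deposited 1 FPKM value per locus and library. The submitters' processing notes also name edgeR 3.0.8. How FPKM was derived from the counts, the strand setting and the handling of reads with several alignments are not given in the sources used here, so overlapping and near-identical genes are uncertain. The study's text and the labels name different sequencers.

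FPKM is not a count, so limma 3.58.1 (R 4.3.3, intensity trend) was run on log2(FPKM + 0.5) for the 19169 loci whose mean was 1 FPKM or more in some genotype. The fit took all 9 libraries together, which left 6 residual degrees of freedom. The pseudocount understates the change of weak genes. Changed means an adjusted p below 0.05 and a fold of at least 2. Depth came from low values of genes under 500 bases, of which 74.3% to 79.8% fell within 0.1 of a whole read, and rests on TAIR10.1 gene lengths; no read number is given for single members. Promoters and positions are from TAIR10.1, read with Python 3.11.15.

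Same-numbered libraries of *bbx11-1* and Col-0 deviated together (r = 0.549, 0.287 and 0.275 across loci), so the block is given beside that comparison. Those of *pif4-2* and Col-0 (0.0717, 0.0625 and 0.0217) and of *bbx11-1* and *pif4-2* (0.0921, 0.0264 and -0.0082) did not.

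The members and lists were chosen with earlier results of these data known. Values in every library are given for members that changed in a comparison or passed the F test, for the CBF genes and for the 5 most abundant members. Of each list, up to 4 genes were named by their fold change and level. *CEJ1*, *PDF1.2*, *HCHIB*, *PR4*, *KIN1*, *SR1*, *EBF2*, *ETR2*, the 4 hypoxia genes and the 3 rapidly induced genes of *bbx11-1* were named after their values had been seen. Alternatives were pseudocounts of 0.1 and 1, other filters, scalings and thresholds, a fit of only the genotypes compared, no trend, the replicate block and leaving out libraries. Protein sequences were not used here.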

Additional observations from a re-analysis of the deposited data

Results flagged for a closer look

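For 5 members the effects of the mutants differed in a direct test between *bbx11-1* and *pif4-2* (limma, Benjamini-Hochberg adjusted over all tested loci). *TDR1* had a log2 difference of -1.23 (adjusted p = 0.0221), with every *bbx11-1* library below every *pif4-2* library (3 of 3). AT1G33760 had -0.92 (adjusted p = 0.0204) and *ERF15* -0.68 (adjusted p = 0.0262), also lower in 3 of 3 *bbx11-1* libraries. *Rap2.6L* had 0.95 (adjusted p = 0.00373) and *EBP* 0.63 (adjusted p = 0.0192), higher in 3 of 3 *bbx11-1* libraries. *Rap2.6L* passed in all 19 alternatives, the others in 12 (*TDR1*), 14 (AT1G33760), 13 (*ERF15*) and 15 (*EBP*) of them. Separation of the libraries was common in this comparison. Every *bbx11-1* library lay below every *pif4-2* library for 1878 of the 19169 loci tested (10 of the 33 members). Every one lay above for 2590 loci (4 members). It uses the same values as the test and adds no evidence to it.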

How the results depend on the processing

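Counted over members, comparisons and alternatives, the fold changes of the named members kept their direction and their side of the threshold in 895 cases, passed it newly in 17, lost it in 44 and changed sign in 13, none of the last past the threshold. These were *CBF2* in *pif4-2* (-0.29 to 0.038, positive without Col-0 replicate 2), *DREB1A* in *bbx11-1* (-0.18 to 0.29, negative without Col-0 replicate 3), *ERF104* between the mutants (-0.0504 to 0.24, negative without *bbx11-1* replicate 3), *RAP2.2* in *bbx11-1* (-0.0197 without Col-0 1 and *bbx11-1* 1) and *RAP2.12*, which ranged from -0.0234 to 0.0941 in *bbx11-1*, from -0.0463 to 0.0712 in *pif4-2* (-0.0199 after quantile normalization, -0.0463 without Col-0 1 and *bbx11-1* 1) and from -0.0283 to 0.0751 between the mutants when libraries were left out.

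The count of members at an adjusted p below 0.05 in *bbx11-1* was 0, or 3 with the replicate block, 1 without the trend and 0 to 5 with 1 library left out, and that of changed members was 0 to 1. In *pif4-2*, changed members were 2, or 4 with a pseudocount of 0.1, 8 at a fold of 1.5 and 9 without a fold threshold, and 2 to 4 with 1 library left out; members at an adjusted p below 0.05 were 9, or 5 to 11. Between the mutants, changed members were 1, or 0 without a filter, 5 at a fold of 1.5 and 5 without a fold threshold, and 0 to 1 with 1 library left out. The 1 member was *TDR1*, but AT1G33760 with a pseudocount of 0.1 or without *pif4-2* replicate 3, and *Rap2.6L* without *pif4-2* replicate 2. Those at an adjusted p below 0.05 were 5, or 1 without a filter and 1 to 5. The F test gave 11, or 5 without a filter, 7 without the trend and 4 to 11. Over all loci, 28 changed in *bbx11-1* (7 in a fit of its own genotypes, 11 without a filter, 13 without the trend, 65 at a fold of 1.5, 85 without a fold threshold, 13 to 42 with 1 library left out), 217 in *pif4-2* (544 at a fold of 1.5, 927 without a fold threshold) and 122 between the mutants (78 without a filter, 304 at a fold of 1.5, 445 without a fold threshold, 74 to 138 with 1 library left out). The cause was not tested. The replicate block changed no other member count by over 1.5 times. Leaving out Col-0 1 and *bbx11-1* 1 together, chosen after seeing the data, left the same 9 members in *pif4-2*, 0 in *bbx11-1* and 6 between the mutants.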
